A study of Rattus norvegicus with 11 samples.

Results

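Voltage-gated calcium channel alpha1 subunits are the pore-forming proteins that open on depolarization and let calcium into the cell. The members described here are the 8 alpha1 genes Cacna1a, Cacna1b, Cacna1c, Cacna1d, Cacna1e, Cacna1g, Cacna1h and Cacna1i. They were taken as the rows of the count tables that carry exactly these symbols, 8 of 42172 gene rows. All 8 passed the filter on low counts, as did 17294 genes in all. The libraries hold polyadenylated RNA of primary hippocampal neurons from CD (Sprague Dawley) IGS rats at day 7 in vitro. An introduced gene was expressed in each group. It was the wild-type form of the linker histone in 4 libraries (WT H1.4), the form whose C-terminus ends in a frameshift tail in 4 libraries (H1.4 CFT), and a fluorescent protein as control in 3 libraries (GFP). No group is of untreated neurons. The labels used here give no promoter, vector or share of cells reached. Whether separate replicates came from separate animals is not given, so the spread between libraries may be partly technical.

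An alpha1 subunit carries the voltage sensor, the pore and the binding sites for channel drugs, and the auxiliary beta and alpha2delta subunits set how much of it reaches the membrane. Cav1 (L-type) channels sit mostly on the soma and dendrites and link calcium entry to gene expression. Cav2 channels (P/Q-, N- and R-type) drive transmitter release at nerve terminals, and Cav3 (T-type) channels open near the resting potential and shape burst firing. H1.4 is a linker histone, a protein that sits on the nucleosome and helps to fold chromatin.

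Library size was 12070941 to 18846492 reads assigned to genes. Levels are given as CPM, read counts scaled to a common library size with TMM factors, and tests are edgeR quasi-likelihood tests with Benjamini-Hochberg adjusted p over all 17294 genes, with a threshold of 0.05. A gene is said to have risen or fallen only where it passed that threshold. CPM does not correct for transcript length, so the levels of different members are not ranked against each other. Libraries are named by group and replicate number. In WT H1.4 and H1.4 CFT, libraries 1 and 2 were alike and libraries 3 and 4 were alike, while libraries of different pairs differed more. GFP has no library 1. There GFP 3 and GFP 4 were alike, and GFP 2 differed more from both. The chi-square per gene over 13617 genes was 1.83 between CFT 1 and CFT 2 and 1.97 between CFT 3 and CFT 4, but 9.46 to 11 across these pairs. Across the pairs it was 4.12 to 5.20 in WT H1.4 and 4.93 to 6.39 in GFP, and it was at most 2.40 within any pair. No label calls the number pairs a batch, and results are also given within them. Adjusted p from fits within a pair do not measure the larger spread between the pairs. The fit of all libraries has no term for the pairs and treats the libraries of a group as independent, though those within a pair were alike. As GFP has no library 1, comparisons with GFP are not balanced over the pairs.

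The labelled cell type was checked first. All 11 neuronal markers examined were detected, with Map2, a dendritic microtubule protein, at 905 to 1400 CPM and Tubb3, neuronal tubulin, at 1237 to 1662 CPM as group means. Astrocyte markers were also abundant, with Gfap, the astrocyte intermediate filament, at 305 to 557 CPM as group means. Oligodendrocyte lineage markers summed to 427 to 524 CPM, with Olig1, a transcription factor of that lineage, at 197 to 236 CPM as group means. Among microglial markers Cx3cr1 had at most 5 reads and C1qa at most 3 in any library, while P2ry12 had 113 to 206 reads. The endothelial marker Cldn5 had at most 9 reads, while the fibroblast collagen gene Col1a1 had up to 356 and the mural gene Pdgfrb up to 285.

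The start regions of 3 members are printed because these members moved in different directions. RefSeq windows of 300 bases (250 before and 50 after the annotated gene start, GRCr8 build) were found for 5 of the 8 members. Cacna1b and Cacna1e fell in H1.4 CFT in both comparisons, and Cacna1d rose against GFP. Each window below is on the minus strand and is written 5′ to 3′ along the gene. Capitals mark matches on either strand to the GC box, searched as GGGCGG, and to the box searched as CCAAT.
Cacna1b, chr3:27944236-27944535: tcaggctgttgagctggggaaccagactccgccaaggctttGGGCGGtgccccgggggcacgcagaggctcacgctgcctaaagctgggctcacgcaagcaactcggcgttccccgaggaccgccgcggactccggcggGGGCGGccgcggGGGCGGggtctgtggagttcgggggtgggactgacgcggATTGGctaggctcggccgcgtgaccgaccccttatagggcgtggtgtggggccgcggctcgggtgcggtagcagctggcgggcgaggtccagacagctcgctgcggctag
Cacna1d, chr16:5527500-5527799: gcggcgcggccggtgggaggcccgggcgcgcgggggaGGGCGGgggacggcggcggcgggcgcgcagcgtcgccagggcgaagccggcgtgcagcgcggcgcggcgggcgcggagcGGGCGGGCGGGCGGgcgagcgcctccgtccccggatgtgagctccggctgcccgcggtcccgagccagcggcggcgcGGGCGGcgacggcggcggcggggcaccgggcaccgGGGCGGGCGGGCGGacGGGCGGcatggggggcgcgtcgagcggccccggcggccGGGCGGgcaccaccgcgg
Cacna1e, chr13:69444761-69445060: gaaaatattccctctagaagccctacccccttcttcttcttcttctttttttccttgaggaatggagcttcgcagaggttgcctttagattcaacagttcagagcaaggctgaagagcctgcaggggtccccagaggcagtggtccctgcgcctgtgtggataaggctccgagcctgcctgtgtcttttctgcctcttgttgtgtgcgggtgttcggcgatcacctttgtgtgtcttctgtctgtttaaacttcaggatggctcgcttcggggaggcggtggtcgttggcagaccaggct

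The windows differed in CpG content, the dinucleotide that clusters in CpG islands. The Cacna1d window held 66 CpG and 10 GGGCGG matches, some overlapping, the Cacna1b window 34 CpG and 3 matches, and the Cacna1a window 41 CpG and 1 match. The Cacna1e and Cacna1c windows held 10 and 4 CpG and no GC box match. The median over 33469 windows was 7 CpG, and 33.1% of them held GGGCGG. The CCAAT motif stood once in the Cacna1b window and once in the Cacna1c window, and in 37.5% of all windows. Further motifs searched on both strands had no match in the 5 windows. Of all windows, 14.2% held the TATA box motif TATAAA, 6.42% the E-box motif CACGTG, 1.83% the cyclic AMP response element TGACGTCA and 0.356% the motif TTCAGCACC, part of the RE1 element. Which start these neurons use was not measured, so a window may hold transcribed sequence in place of a promoter.

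In H1.4 CFT neurons, 6 of the 8 alpha1 genes were lower than in WT H1.4 neurons and none passed as higher. Cacna1i, a T-type channel gene, fell 1.59-fold, Cacna1e (R-type) 1.42-fold and Cacna1b (N-type) 1.22-fold. Cacna1h (T-type) fell with a log2 fold change of -0.38. Cacna1a (P/Q-type) and Cacna1g (T-type) fell by smaller amounts, 1.14-fold and 1.10-fold. The L-type genes Cacna1c and Cacna1d did not pass. Over all genes tested 35.9% passed in this comparison, 19.2% as lower and 16.7% as higher, so falls were frequent across the transcriptome. The members' median log2 fold change was -0.24, against 0.018 for all genes tested. In 5 members every H1.4 CFT library lay below every WT H1.4 library, as 18.5% of all genes tested did, and in none did every library lie above (16.1% of all genes tested). Between WT H1.4 and GFP neurons none of the 8 genes passed in the fit of all libraries, where 0.943% of all genes tested did.

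**Figure D1:**
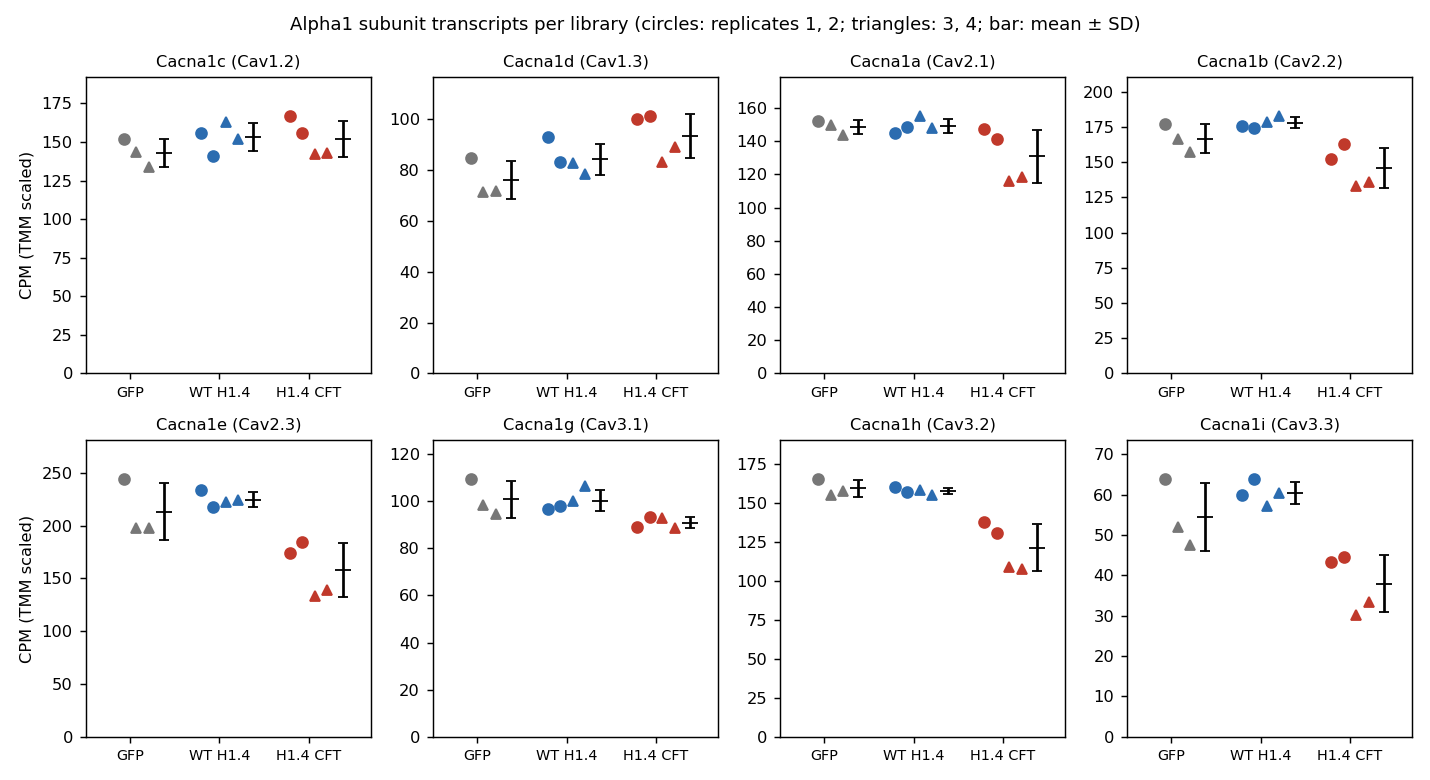
CPM (TMM scaled, y axis from 0) of the 8 alpha1 genes in each library of GFP, WT H1.4 and H1.4 CFT neurons, with circles for replicates 1 and 2, triangles for 3 and 4, and the mean ± SD beside them. In Cacna1e, Cacna1h and Cacna1i all 4 H1.4 CFT libraries sit below all libraries of both other groups, while Cacna1c overlaps throughout.

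The T-type genes gave the largest and the smallest of these falls. Cacna1i, which encodes Cav3.3, a slowly inactivating T-type channel, stood at 63.9, 52.1 and 47.4 CPM in GFP 2 to 4 and at 60.0, 63.9, 57.2 and 60.4 CPM in WT 1 to 4. It stood at 43.3, 44.6, 30.3 and 33.5 CPM in CFT 1 to 4. Every H1.4 CFT library was below every other library, and CFT 3 and CFT 4 were the lowest of all. It differed by a log2 fold change of -0.67 from WT H1.4 (SE 0.13, edgeR adjusted p = 0.00226) and of -0.52 from GFP (SE 0.14, adjusted p = 0.0172). The call against GFP was lost without GFP 2 (adjusted p = 0.0589). Only 3.97% of genes tested had a lower log2 fold change than Cacna1i against WT H1.4.

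Cacna1h encodes Cav3.2, the T-type channel inhibited by low nickel and known from pain pathways and epilepsy genetics. Its levels were 165, 155 and 158 CPM in GFP 2 to 4, 160, 157, 158 and 155 CPM in WT 1 to 4, and 137, 131, 109 and 108 CPM in CFT 1 to 4. The GFP and WT H1.4 libraries were nearly level and all above H1.4 CFT. The log2 fold change was -0.38 against WT H1.4 (SE 0.065, adjusted p = 0.000320) and -0.39 against GFP (SE 0.070, adjusted p = 0.000569), the smallest adjusted p among the members in each comparison. In this gene the WT H1.4 spread was also the smallest of the members, with a mean of 158 ± 2.11 CPM (SD, n = 4) against 121 ± 15.1 CPM (SD, n = 4) in H1.4 CFT.

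Cacna1g, which encodes Cav3.1, the T-type channel of thalamic bursting, moved least of the genes that fell. It stood at 109, 98.4 and 94.4 CPM in GFP 2 to 4, at 96.4, 98.1, 100 and 106 CPM in WT 1 to 4, and at 88.9, 93.1, 92.7 and 88.7 CPM in CFT 1 to 4. GFP and WT H1.4 overlapped, and every H1.4 CFT library lay below both, with a small gap between GFP 4 and CFT 2. The log2 fold change was -0.14 against WT H1.4 (SE 0.049, adjusted p = 0.0295) and -0.15 against GFP (SE 0.053, adjusted p = 0.0426). Both calls depended on single libraries. Against WT H1.4 the adjusted p became 0.0533 without WT 3, 0.109 without WT 4, 0.0659 without CFT 1 and 0.0774 without CFT 4. Against GFP the call was lost when GFP 2 (0.251), GFP 3 (0.0604), WT 2 (0.0504), WT 3 (0.0524), CFT 1 (0.0836), CFT 3 (0.0564) or CFT 4 (0.0964) was left out. With the replicate number as a block the adjusted p against GFP was 0.0736. Unlike the other 5 falling genes, Cacna1g had similar levels in CFT 1 and 2 and in CFT 3 and 4.

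Among the Cav2 genes, those of presynaptic calcium entry, Cacna1e fell most. It encodes Cav2.3, the R-type channel. It stood at 244, 198 and 198 CPM in GFP 2 to 4, at 234, 218, 222 and 225 CPM in WT 1 to 4, and at 174, 185, 134 and 139 CPM in CFT 1 to 4. No H1.4 CFT library reached the lowest library of another group. On the log2 scale the change was -0.51 against WT H1.4 (SE 0.11, adjusted p = 0.00640) and -0.43 against GFP (SE 0.12, adjusted p = 0.0237). The call against GFP was lost without GFP 2 (log2 fold change -0.33, adjusted p = 0.0800) and without CFT 4 (-0.38, adjusted p = 0.0568).

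Cacna1b encodes Cav2.2, the N-type channel blocked by omega-conotoxin GVIA. Its levels were 177, 166 and 157 CPM in GFP 2 to 4, 176, 175, 179 and 183 CPM in WT 1 to 4, and 152, 163, 133 and 136 CPM in CFT 1 to 4. H1.4 CFT lay below WT H1.4 in every library, but CFT 2 was above GFP 4. The log2 fold change was -0.29 against WT H1.4 (SE 0.056, adjusted p = 0.000639) and -0.19 against GFP (SE 0.061, adjusted p = 0.0235). The call against GFP was lost without GFP 2 (adjusted p = 0.119), GFP 3 (0.0590), CFT 3 (0.0779) or CFT 4 (0.0711).

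Cacna1a encodes Cav2.1, the P/Q-type channel of most fast central synapses and a gene of ataxia and hemiplegic migraine. It stood at 152, 150 and 144 CPM in GFP 2 to 4, at 145, 149, 155 and 148 CPM in WT 1 to 4, and at 148, 141, 116 and 119 CPM in CFT 1 to 4. CFT 1 lay within the range of the other groups, and CFT 3 and CFT 4 lay well below it. Its log2 fold change was -0.19 against WT H1.4 (SE 0.064, adjusted p = 0.0278) and -0.18 against GFP (SE 0.070, adjusted p = 0.0567). The call against WT H1.4 was lost without WT 2 (adjusted p = 0.0531), WT 3 (0.0742), WT 4 (0.0539), CFT 3 (0.0866) or CFT 4 (0.0872). Against GFP the gene passed without CFT 1 (adjusted p = 0.00496), without CFT 2 (0.0237) and with the replicate number as a block (0.0190). It also passed there with the number pair as a term in the fit (0.00778) and without a low-count filter (0.00271).

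The L-type genes did not follow the other members. Cacna1d, which encodes Cav1.3, an L-type channel that opens at comparatively negative potentials, stood at 84.6, 71.6 and 71.7 CPM in GFP 2 to 4 and at 92.9, 83.3, 82.8 and 78.3 CPM in WT 1 to 4. It stood at 100, 101, 83.2 and 89.0 CPM in CFT 1 to 4. The highest values were in CFT 1 and CFT 2, with overlap between all groups. Cacna1d was the only member that rose, by 1.23-fold over GFP in H1.4 CFT, where its log2 value was 0.30 (SE 0.080, adjusted p = 0.0106). That call was lost without GFP 3 (adjusted p = 0.0568) or GFP 4 (0.0614). Against WT H1.4 the log2 fold change was 0.15 (95% interval -0.0072 to 0.30, adjusted p = 0.129). There Cacna1d passed as higher with the replicate number as a block (0.0230) and without CFT 3 (0.0349). It also passed with the number pair as a term in the fit (0.0122) and without a low-count filter (0.0378).

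Cacna1c encodes Cav1.2, the main L-type channel of hippocampal neurons and of heart and smooth muscle, and a gene of Timothy syndrome. Its levels were 152, 144 and 134 CPM in GFP 2 to 4, 156, 141, 163 and 152 CPM in WT 1 to 4, and 167, 156, 143 and 143 CPM in CFT 1 to 4. The groups overlapped in every comparison. The log2 fold change was -0.010 against WT H1.4 (95% interval -0.13 to 0.11, adjusted p = 0.902) and 0.088 against GFP (-0.041 to 0.22, adjusted p = 0.306). On the fold scale the interval against WT H1.4 ran from 0.915 to 1.08.

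**Figure D2:**
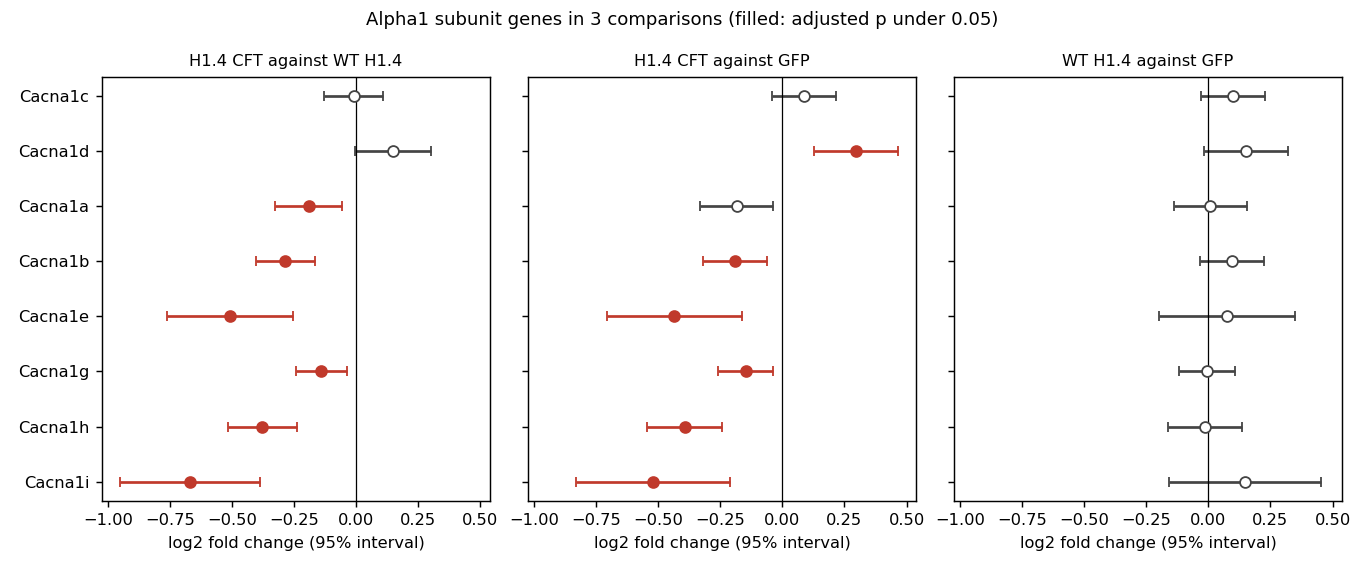
Log2 fold change (x axis) of the 8 alpha1 genes in the 3 comparisons, from the edgeR fit of all 11 libraries, with 95% intervals as bars and filled points for adjusted p under 0.05. The falls in H1.4 CFT run from -0.14 (Cacna1g) to -0.67 (Cacna1i) against WT H1.4, and no point is filled for WT H1.4 against GFP.

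Against GFP, 5 of the 8 members fell in H1.4 CFT (Cacna1b, Cacna1e, Cacna1g, Cacna1h and Cacna1i), 1 rose (Cacna1d) and 2 did not pass (Cacna1a and Cacna1c). Over all genes tested 29.5% passed, 16.2% as lower and 13.3% as higher. In 4 members every H1.4 CFT library was below every GFP library, as in 18.5% of all genes tested, and in none was every library above (17% of all genes tested). The median log2 fold change of the members was -0.19, against 0.011 for all genes tested. This comparison shares its H1.4 CFT libraries with the one against WT H1.4, so their values are not independent. The count was less stable than against WT H1.4. It was 2 without GFP 2 (Cacna1h lower and Cacna1d higher), 3 without GFP 3 and 3 without CFT 4, and 2 when the WT H1.4 libraries were left out of the fit. Over all genes tested in these 4 fits, 23.9%, 22.7%, 24.4% and 26.5% passed, so a count of 2 of the 8 members is near the share of all genes.

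WT H1.4 against GFP gave 0 of 8 members past the threshold in edgeR, with 0 at an unadjusted p under 0.05, and 0 in DESeq2 and in limma-voom. In this comparison 0.943% of all genes tested passed, 0.434% as higher and 0.509% as lower. The log2 fold changes ran from -0.015 for Cacna1h (95% interval -0.16 to 0.13) to 0.15 for Cacna1d (-0.019 to 0.32). The widest interval was that of Cacna1i, with a log2 fold change of 0.15 (-0.16 to 0.45). All 8 members overlapped between these groups, while 6.29% of all genes tested lay wholly above and 5.94% wholly below GFP. Within libraries 3 and 4 alone, 5 members passed as higher in WT H1.4 than in GFP (Cacna1b, Cacna1c, Cacna1d, Cacna1e and Cacna1i). Their log2 fold changes were between 0.17 for Cacna1b (adjusted p = 0.00640) and 0.25 for Cacna1i (adjusted p = 0.0119). Over all 17253 genes tested in that fit 9.25% passed, 5.5% as higher. All 8 members stood higher in GFP 2 than in GFP 3 and GFP 4, as did 37.1% of all genes tested.

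Within H1.4 CFT, CFT 3 and CFT 4 were lower than CFT 1 and CFT 2 in 7 of the 8 members, Cacna1g being the exception, and in 31% of all genes tested. The pairs thus differed across the transcriptome, not in the members alone. In fits of libraries 1 and 2 alone, with 2 libraries a group, Cacna1e, Cacna1i, Cacna1h and Cacna1b were lower in H1.4 CFT, with log2 fold changes of -0.33, -0.49, -0.24 and -0.15 and adjusted p of 1.70e-08, 7.24e-08, 2.77e-05 and 0.00581. In libraries 3 and 4 alone the same genes gave -0.72, -0.88, -0.54 and -0.43, with adjusted p of at most 1.11e-14. These 4 genes thus fell in both pairs. The adjusted p of these fits rest on libraries that were much alike, and do not measure the larger spread between the pairs. Over all genes, 27.9% passed in libraries 1 and 2 (15.7% as lower and 12.3% as higher) and 43.6% in libraries 3 and 4 (23.7% as lower). Cacna1a gave -0.023 (adjusted p = 0.742) in libraries 1 and 2 and -0.38 (adjusted p = 2.23e-11) in libraries 3 and 4. Cacna1g gave -0.093 (adjusted p = 0.181) and -0.19 (adjusted p = 0.00169). Cacna1c passed in both pairs with opposite directions, at 0.12 (adjusted p = 0.0485) in libraries 1 and 2 and -0.15 (adjusted p = 0.00536) in libraries 3 and 4. Cacna1d passed as higher in libraries 1 and 2 (0.19, adjusted p = 0.00544) and did not pass in libraries 3 and 4 (0.092, adjusted p = 0.176). The difference between the pairs was not tested.

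**Figure D3:**
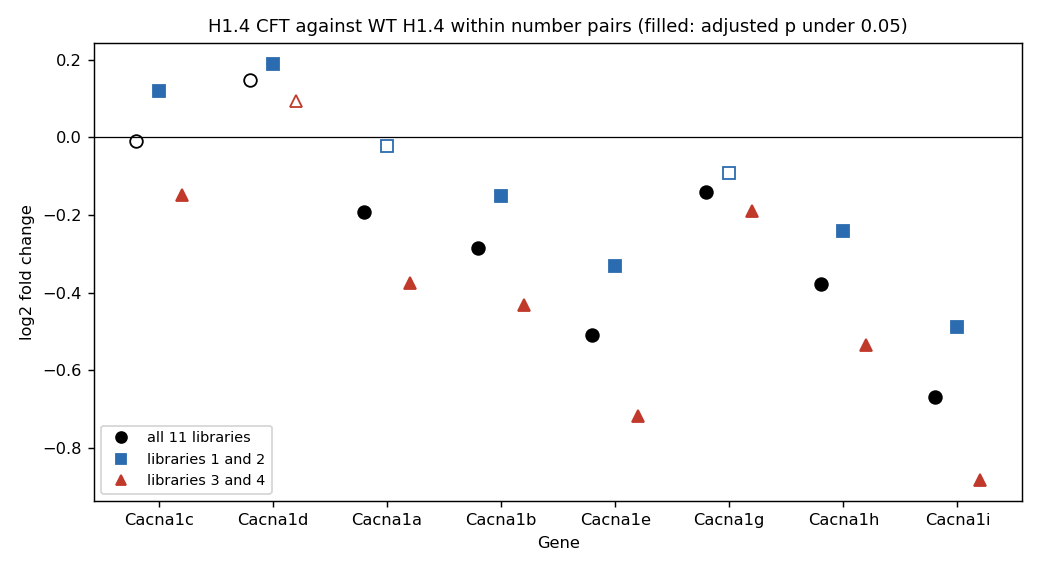
Log2 fold change (y axis) of each alpha1 gene for H1.4 CFT neurons with WT H1.4 neurons as reference, from all 11 libraries (black circles), from libraries 1 and 2 alone (blue squares) and from libraries 3 and 4 alone (red triangles), with filled symbols for adjusted p under 0.05. Cacna1b, Cacna1e, Cacna1h and Cacna1i are filled and below 0 in all 3 fits, while Cacna1c lies on opposite sides of 0 in the 2 pairs.

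Against GFP the number pairs allow a comparison for libraries 3 and 4 only, since GFP has 1 library numbered 1 or 2. There Cacna1e, Cacna1h, Cacna1i, Cacna1a and Cacna1b were lower in H1.4 CFT, with log2 fold changes of -0.54, -0.53, -0.64, -0.32 and -0.26. Cacna1d was higher (0.26, adjusted p = 8.66e-05). In that fit 38.8% of all genes passed, 21.6% as lower and 17.2% as higher. Cacna1g (-0.088, adjusted p = 0.194) and Cacna1c (0.043, adjusted p = 0.503) did not pass.

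Levels of neuronal and astrocyte markers also differed between groups, and the astrocyte markers did not follow the members. The summed level of the 11 neuronal markers was 3187 to 3744 CPM in H1.4 CFT, 4389 to 4578 CPM in WT H1.4 and 4510 to 4641 CPM in GFP. Against WT H1.4, 7 of the 11 fell and 2 rose (Gad1 and Gad2, the enzymes of GABA synthesis). Against GFP 7 fell and none rose. Of all genes tested, 19.2% passed as lower and 16.7% as higher against WT H1.4, and 16.2% and 13.3% against GFP. Map2 had log2 fold changes of -0.54 and -0.63 in H1.4 CFT, and Rbfox3, the neuronal nuclear antigen NeuN, -0.35 and -0.30. The summed level of 10 astrocyte markers was 2149 to 2225 CPM in H1.4 CFT, 1647 to 1766 CPM in WT H1.4 and 2086 to 2227 CPM in GFP, so it separated H1.4 CFT from WT H1.4 but not from GFP. Among other lineages, 0 of 8 tested oligodendrocyte markers passed against WT H1.4 and 1 rose against GFP. Of 2 tested microglial markers 1 rose and 1 fell in each comparison, with a summed level of 8.06 to 14.0 CPM in any library. Of 10 tested endothelial, mural and fibroblast markers 3 rose and 1 fell against WT H1.4, and 1 rose and 1 fell against GFP. Of 4 tested muscle markers 1 rose in each comparison. For WT H1.4 against GFP 2 neuronal (Gad1 and Gad2), 6 astrocyte and 2 endothelial, mural and fibroblast markers (Col1a1 and Col1a2) fell, and 1 oligodendrocyte lineage marker (Cspg4) rose. In that comparison 0.943% of all genes tested passed. In bulk RNA, fewer cells of a type and less RNA per cell cannot be told apart, and the part of these shifts in the members' values was not tested.

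The members also differed in how they varied over the 11 libraries. Cacna1e and Cacna1i moved most closely together (Pearson r 0.98 of log2 CPM over 11 libraries), followed by Cacna1b with Cacna1i (0.97) and Cacna1b with Cacna1e (0.97). Cacna1d ran from -0.42 with Cacna1g to 0.65 with Cacna1c. These coefficients are descriptions only, since the libraries fall into groups and number pairs. With group means removed Cacna1g gave 0.089 with Cacna1h. With group means removed Cacna1d ran from 0.16 with Cacna1g to 0.89 with Cacna1e, and all its coefficients were positive.

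Among 11349 other genes with at least 5 CPM, those most like each member over the 11 libraries were picked by Pearson r of log2 CPM. Cacna1h was most like Cd200, Mlip and Sema4g (r 0.99 each). Cacna1e was most like Dst, Crim1 and Clmp (0.99), and Cacna1i like Dnm3, Asph and Slc6a15 (0.99). Cacna1b was most like Clmp, Asph and Elovl6 (0.99), and Cacna1a like Ak5, Rasgrp2 and Mfhas1 (0.97 to 0.98). Clmp was thus among the nearest genes of both Cacna1b and Cacna1e, and Asph of both Cacna1b and Cacna1i. For Cacna1d they were Oxr1, Abhd10 and Trmo (0.93 to 0.95), for Cacna1g Homez, Clstn2 and Mir3597-2 (0.90 to 0.94) and for Cacna1c Fam189b, Pnma3 and Prtn3 (0.90 to 0.91). Cacna1c and Cacna1g had the least close neighbours.

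The remaining alpha1 relatives were scarce or did not pass against WT H1.4. Cacna1s and Cacna1f, the skeletal muscle and retinal L-type genes, had at most 12 and 13 reads in any library. Nalcn, the sodium leak channel with an alpha1-like fold, stood at 30.5 ± 8.18 CPM in H1.4 CFT, 42.0 ± 4.90 CPM in WT H1.4 and 47.5 ± 6.86 CPM in GFP (SD, n = 4, 4 and 3). It did not pass against WT H1.4 (log2 fold change -0.46, adjusted p = 0.0894). It fell against GFP (-0.63, adjusted p = 0.0461), but that call was lost without any one of 8 libraries, with an adjusted p between 0.0506 (without WT 1) and 0.136 (without GFP 2).

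Auxiliary subunits, which traffic and tune the alpha1 pore, fell in part. Beside the counts below, 19.2% of all genes tested passed as lower and 16.7% as higher against WT H1.4. Against GFP these shares were 16.2% and 13.3%. Of 4 beta subunit genes 1 fell against WT H1.4, Cacnb2 (log2 fold change -0.50, adjusted p = 2.11e-05), and 2 fell against GFP, Cacnb2 (-0.51) and Cacnb1 (-0.17, adjusted p = 0.0188). The Cacnb1 call was lost without GFP 2 (adjusted p = 0.0587) or CFT 4 (0.0717), and 2 beta genes passed against WT H1.4 without CFT 1. Cacnb3 gave -0.013 and 0.077. Of 4 alpha2delta genes, 3 fell in both comparisons. They were Cacna2d1 (-0.30 and -0.46), Cacna2d2 (-0.29 and -0.29) and Cacna2d3 (-0.66 and -0.66), and the Cacna2d2 call against GFP was lost without GFP 2 (adjusted p = 0.0546). Of 7 tested gamma subunit genes, several of which serve AMPA receptors, 5 fell and 1 rose against WT H1.4. Cacng2 (-0.66), Cacng4 (-0.19) and Cacng7 (-0.25) fell and Cacng5 rose (0.95, adjusted p = 2.00e-06). Against GFP 3 fell, Cacng2 (-0.68), Cacng3 (-1.03) and Cacng6 (-1.27), and Cacng5 rose (0.41, adjusted p = 0.00970). The Cacng3 call was lost without GFP 2 (adjusted p = 0.0544). Cacng5 was also the 1 gamma gene called in WT H1.4 against GFP (-0.53, adjusted p = 0.0353), a call lost without any one WT H1.4 library, GFP 3 or GFP 4 (adjusted p of 0.0694 to 0.233).

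Active zone proteins hold Cav2 channels at release sites. All 12 tether genes tested fell in H1.4 CFT against both WT H1.4 (median log2 fold change -0.42) and GFP (median -0.35), beside 19.2% and 16.2% of all genes tested. Without single libraries 11 to 12 of them passed against WT H1.4 and 9 to 12 against GFP, with 9 without GFP 2. Erc2 (-0.55 and -0.47), Unc13a (-0.46 and -0.43) and Pclo (-0.58 and -0.63), the genes of ELKS2, Munc13-1 and Piccolo, had the smallest p in both. Rims3 (-0.51 against WT H1.4) and Rims2 (-0.33 against GFP) completed the 4 with the smallest p. Rims3 was higher in WT H1.4 than in GFP (0.31, adjusted p = 0.0487), a call lost without any one WT H1.4 library, GFP 3 or GFP 4 (adjusted p of 0.0684 to 0.355). Of 13 tested trafficking and modulation genes, 6 fell and 1 rose in each comparison, where 35.9% and 29.5% of all genes tested passed. Stac2 (-0.97 against WT H1.4), an L-type channel adaptor, Rem2 (-1.11 and -1.53), a small GTPase that inhibits these channels, and Dpysl2 (-0.29 against GFP) fell. The ubiquitin ligase gene Nedd4 rose (0.20 and 0.20). The Dpysl2 call was lost without GFP 2 (adjusted p = 0.0664), and the list's 7 calls against GFP became 3. In that fit 23.9% of all genes tested passed.

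**Figure D4:**
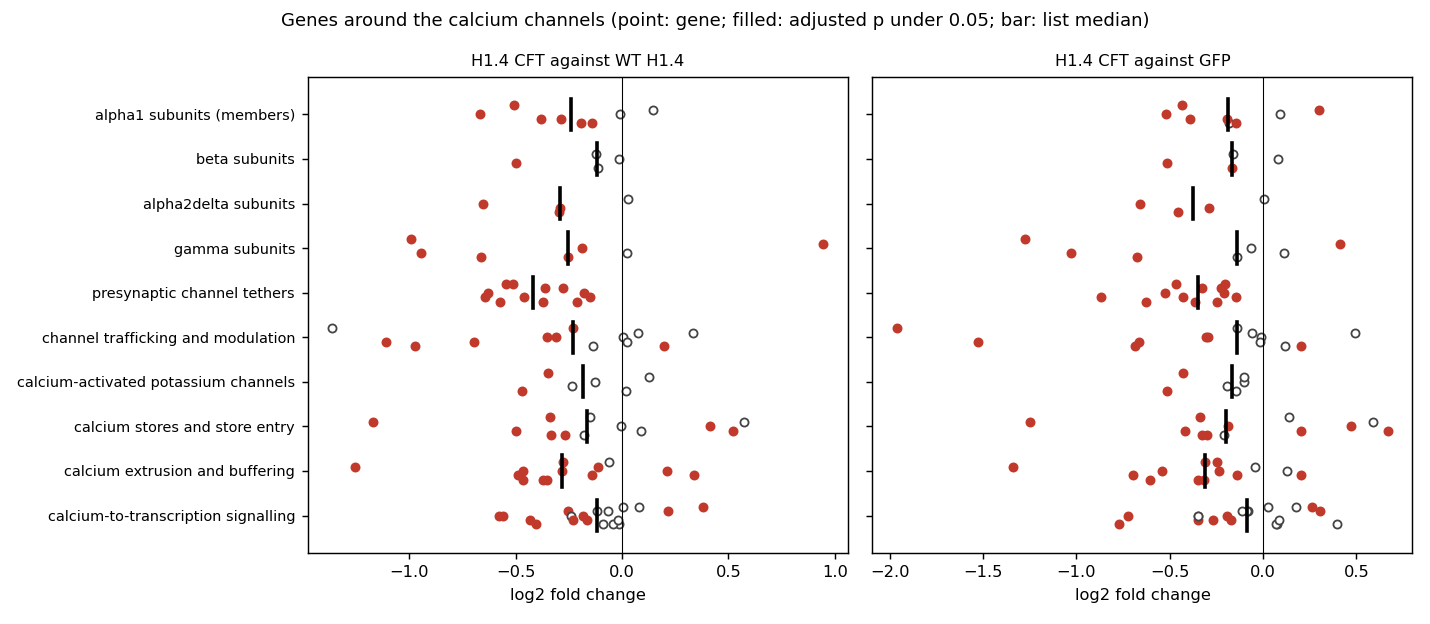
Log2 fold change (x axis) of each tested gene (points) in 10 lists around the calcium channels (y axis), for H1.4 CFT neurons with WT H1.4 or GFP neurons as reference, with filled points for adjusted p under 0.05 and a bar at each list's median. The median of the 8 alpha1 genes is -0.24 and -0.19, and all 12 presynaptic tether genes lie below 0 in both panels.

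Genes that act after calcium entry moved both ways. Their counts stand beside 19.2% of all genes tested as lower and 16.7% as higher against WT H1.4. Against GFP the shares were 16.2% and 13.3%. Of 6 calcium-activated potassium channel genes 2 fell, Kcnma1 (BK channel, -0.47 and -0.52) and Kcnn2 (SK channel, -0.35 and -0.43), and 4 did not pass in either comparison. Of 12 tested store genes 5 fell and 2 rose against WT H1.4, and 6 fell and 3 rose against GFP. Without GFP 2 there were 5 calls in all against GFP, where 23.9% of all genes passed. Ryr2, the ryanodine receptor of internal stores, had mean levels of 33.1 CPM in H1.4 CFT and 74.5 CPM in WT H1.4, a 2.25-fold fall (adjusted p = 0.000161), and its log2 fold change against GFP was -1.25. Itpr1 (-0.50 and -0.42), Atp2a2 (-0.27 and -0.32) and Stim1 (-0.33 against WT H1.4) fell, and Orai3 rose (0.67 against GFP). Of 13 tested extrusion and buffer genes 10 fell and 2 rose against WT H1.4, and 10 fell and 1 rose against GFP. The plasma membrane pump gene Atp2b1 fell (-0.37 and -0.32) while Atp2b2 rose (0.34 against WT H1.4). Slc8a2 (-0.49 and -0.70), Calm2 (-0.28 and -0.23) and Calb2 (-0.61 against GFP) fell. Of 19 calcium-to-transcription genes 8 fell and 2 rose against WT H1.4, and 7 fell and 2 rose against GFP. Camkk1 (-0.56), Camkk2 (-0.25) and Ppp3ca (-0.23) fell and Camk2d rose (0.38) against WT H1.4. Camk2a (-0.72), Camk4 (-0.27) and Akap5 (-0.77) fell and Mef2d rose (0.31) against GFP.

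Counting could blur some members. In a GRCr8 gene table, used for names and neighbours only, Cacna1c overlaps the protein-coding gene Dcp1b and 3 noncoding genes, and Cacna1h overlaps Tpsg1. Cacna1a and Cacna1d each overlap 2 noncoding genes, Cacna1i overlaps 1, and Cacna1e overlaps 1 pseudogene. Cacna1b and Cacna1g overlap none. The strand setting of the counting is not given in the sources used here, so reads of overlapping genes cannot be told apart.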

How the data were processed

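Polyadenylated RNA of 11 rat hippocampal neuron cultures (GFP 3, WT H1.4 4, H1.4 CFT 4) was sequenced. Per the submitters' processing notes, the authors used STAR 2.7.2b, HTSeq 0.10.0 and the mRatBN7.2 build. Each deposited file lists unnormalized read counts by gene symbol. The annotation release and strand setting are not given in the sources used here. The 5 summary entries of the counter, 53.1% to 54.1% of reads, stayed out of library sizes.

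The tests used edgeR 4.0.16 under R 4.3.3 (filterByExpr with minimum count 10 and minimum total 15, TMM, robust quasi-likelihood fit of all libraries by group, 8 residual degrees of freedom, biological coefficient of variation 7.02%). The fit was tested on simulated data. Alternatives used DESeq2 1.42.0, limma-voom 3.58.1, other scaling, filters and library subsets, and the replicate number as a block.

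Residuals of equal replicate numbers correlated at 0.142 to 0.192 for H1.4 CFT with WT H1.4, 0.124 to 0.255 between H1.4 CFT and GFP, and 0.0927 to 0.206 between WT H1.4 and GFP. With 0.1 as the limit, the numbers would pair the first 2 comparisons. The main fit held no replicate term all the same, and the replicate block served as an alternative only. In WT H1.4 the library most alike in residuals bore the same number for CFT 2 and CFT 3, but not for CFT 1 (WT 2) or CFT 4 (WT 3). In GFP it did for CFT 2 and CFT 4, but not for CFT 3 (GFP 4).

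Members, lists and tests were chosen with earlier results of these data known. All members were named. Of each list around the channel, up to 4 genes past the threshold with the smallest p were named per comparison, and for each member the 3 genes most like it (log2 CPM with a prior count of 2, mean of at least 5 CPM). Exceptions, named after their values were seen, are the marker genes, Cacnb3, Cacna1s and Cacna1f. Levels per length were planned but not computed, as no transcript or coding length was at hand. One gene that this rule names is not reported here.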

Additional observations from a re-analysis of the deposited data

Results flagged for a closer look

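Of the 8 members, none had a library that stood apart from the other 3 of its group in WT H1.4 or H1.4 CFT. Among the named genes of the surrounding lists, 2 did in WT H1.4. Cacng6, a gamma subunit gene with few reads, stood at 1.74 CPM in WT 2, above the other WT H1.4 libraries (gap 0.934 of the group's range). Stim1, the store calcium sensor, stood at 36.2 CPM in WT 1, below the others, which reached 37.7 CPM. Chance flags about 1 in 20 groups, and 100 groups of 4 libraries were checked, so 2 flags are fewer than that rate gives.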

How the results depend on the processing

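Of 512 member values under alternatives, 441 kept direction and side of the threshold, 38 lost a call, 17 gained one and 16 changed sign. Cacna1b, Cacna1e, Cacna1h and Cacna1i kept their falls against WT H1.4 in all 22 alternatives, and Cacna1h against GFP in all 21. The count of members called against GFP was 2 when only the groups compared were fitted and 2 to 7 without single libraries. In those fits 26.5% and 22.5% to 29.9% of all genes tested passed. For WT H1.4 against GFP the count of members called was 5 with only libraries 3 and 4, where 9.25% of all genes passed. The count of all genes called for WT H1.4 against GFP was 163, but 268 with DESeq2, 462 with no filter, 248 with the replicate number as a block, 404 with the number pair as a term, 348 with only the groups compared, 1596 with only libraries 3 and 4, and 44 to 306 without single libraries. The causes were not tested. Cacna1a in WT H1.4 against GFP was -0.014 with the replicate block and -0.0079 with the number pair as a term. Cacna1g was 0.010 with the block and 0.10 in libraries 3 and 4, and Cacna1h 0.0043 in libraries 3 and 4. Cacna1c against WT H1.4 was 0.0084 with a 5 CPM filter and 0.12 in libraries 1 and 2, where it passed (adjusted p = 0.0485). Without single libraries the ranges were -0.015 to 0.026 for Cacna1a, -0.052 to 0.057 for Cacna1g and -0.033 to 0.012 for Cacna1h (WT H1.4 against GFP), and -0.058 to 0.020 for Cacna1c (H1.4 CFT against WT H1.4). Beyond libraries 1 and 2 alone (Cacna1a, Cacna1g) and 3 and 4 alone, calls lost under other settings were Cacna1g (5 CPM filter, adjusted p = 0.0543) against WT H1.4. Against GFP they were Cacna1g (DESeq2 0.0583, limma-voom 0.0572, 5 CPM filter 0.0685), Cacna1e without a filter (0.0517), and Cacna1b, Cacna1e, Cacna1g and Cacna1i with only the groups compared (0.0572, 0.0686, 0.0727 and 0.0510). The block changed the calls given above for Cacna1a, Cacna1d and Cacna1g and no other member call. With the number pair as a term, 7 of 8 members passed against WT H1.4 and 7 against GFP, 6 lower and 1 higher in each. Over all genes tested 42.3% and 36.3% passed in those fits. Comparisons of levels per length and of family composition were not run. At these depths members had 534 to 4322 reads per library. The alternatives for genes and counts of the surrounding lists were added after seeing the data, and 1338 of 1373 such gene values kept their call.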
